A study of Homo sapiens with 12 samples.

Results

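The HOX gene clusters are the 4 tandem arrays of homeobox genes HOXA, HOXB, HOXC and HOXD. The 39 protein-coding genes named HOXA, HOXB, HOXC or HOXD plus a number were taken from the hg19 annotation, out of 20098 protein-coding genes. They are 11 genes of HOXA on chromosome 7, 10 of HOXB on chromosome 17, 9 of HOXC on chromosome 12 and 9 of HOXD on chromosome 2. A cluster was counted from the start of its lowest gene to the end of its highest gene plus 20 kb on each side, and a gene was counted with 5 kb on each side.

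ChIP-exo was performed in DCIS.COM, an established breast cell line that models ductal carcinoma in situ, with antibodies against STAT3 phosphorylated on a serine (pSTAT3) and against BCL9, a coactivator of Wnt signaling. ChIP-exo is a form of chromatin immunoprecipitation in which an exonuclease trims the DNA up to the crosslinked protein, so that each binding event leaves a pair of borders, listed as a peak pair. Cells of the Non-scrambled control (NS) gave 3 pSTAT3, 3 BCL9 and 1 CTCF library, and cells with knockdown of BCL9 (BCL9 KD) gave 2 pSTAT3 and 2 BCL9 libraries. All libraries are from the same cell line and the labels call them biological replicates, so p-values measure the spread between these libraries. Neither the line's identity nor the loss of BCL9 can be checked from peak lists.

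HOX proteins are transcription factors that give cells their position along the body axis. Within a cluster the genes are arranged in the order in which they act from head to tail, and genes of the same number in different clusters are paralogs descended from an ancestral gene. Broad domains of active or Polycomb-repressed chromatin cover the clusters, and CTCF, a zinc-finger protein that organises chromatin loops, binds between HOX genes, where its sites can form borders of such domains.

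The sequences on which the account turns are given here as read from the GRCh37 (hg19) genome, 5′ to 3′. The first 4 windows, of 100 bp each, lie in regions of the HOXA cluster that held peak pairs of both antibodies, all on the plus strand and in introns or noncoding exons. Capitals mark an AP-1 string (TGANTCA, the site of JUN and FOS dimers) or a STAT string (TTCNNNGAA).
Region 2, chr7:27150994-27151093, intron of HOXA3: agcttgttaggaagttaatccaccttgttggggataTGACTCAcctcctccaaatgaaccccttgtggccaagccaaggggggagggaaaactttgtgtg
Region 2, chr7:27151236-27151335, intron of HOXA3: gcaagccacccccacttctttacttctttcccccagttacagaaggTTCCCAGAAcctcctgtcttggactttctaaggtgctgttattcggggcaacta
Region 3, chr7:27154889-27154988, exon of HOXA-AS2: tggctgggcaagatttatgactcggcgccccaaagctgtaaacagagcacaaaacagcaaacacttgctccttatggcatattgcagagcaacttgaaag
Region 4, chr7:27174163-27174262, intron of HOXA3 and HOXA-AS3: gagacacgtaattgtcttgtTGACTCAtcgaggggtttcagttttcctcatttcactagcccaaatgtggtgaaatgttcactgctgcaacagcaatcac

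The next 3 windows lie at strong CTCF sites, described further on, outside coding exons and untranslated parts of genes. In the HOXB8 to HOXB9 window, on the minus strand, capitals mark the CTCF core motif. In the other 2 windows, on the plus strand, capitals mark the longest run of letters that they share.
HOXB8 to HOXB9, chr17:46696066-46696165: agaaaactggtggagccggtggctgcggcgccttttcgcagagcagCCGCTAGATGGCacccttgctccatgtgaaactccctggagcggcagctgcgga
HOXC8 to HOXC9, chr12:54399839-54399938: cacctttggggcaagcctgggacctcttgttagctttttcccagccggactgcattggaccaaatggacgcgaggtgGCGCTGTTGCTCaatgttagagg
HOXD8 to HOXD9, chr2:176991890-176991989: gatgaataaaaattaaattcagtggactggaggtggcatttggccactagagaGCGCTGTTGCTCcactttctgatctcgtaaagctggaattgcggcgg

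The lists were of very unequal length, from 24728 peak pairs in control BCL9 replicate 2 to 493174 in knockdown pSTAT3 replicate 2. Counts in a cluster were therefore divided by list length and given as peak pairs per 10000 listed or as a density relative to the genome. Read depth was not known. In the pSTAT3 and BCL9 lists, 21.1% to 48.1% of the peak pairs had the lowest signal of their list, so ranks, given as percent of the list with the strongest pair first, were tied at the bottom.

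The pSTAT3 and BCL9 peak pairs were dense in HOXA, near the genome level in HOXB and HOXC, and sparse in HOXD. In the 147 kb of HOXA (chr7:27112612-27259710), pSTAT3 gave 18, 9 and 52 peak pairs in control replicates 1 to 3 and 47 and 69 in the knockdown replicates. BCL9 gave 2, 8 and 26 in control and 25 and 49 after knockdown. Every library lay above the number that its list would place there at the genome density, and the closest was control BCL9 replicate 1, with 2 peak pairs against 1.49. The density was 2.45 ± 0.470-fold that of the genome for pSTAT3 and 3.76 ± 1.92-fold for BCL9 (mean ± SD, n = 5 libraries each).

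In the 240 kb of HOXB (chr17:46585888-46826112), pSTAT3 gave 6, 8 and 42 peak pairs in control and 36 and 35 after knockdown. The BCL9 libraries gave 2, 4 and 17 in control and 6 and 34 after knockdown. These were 0.948 ± 0.267-fold the genome density for pSTAT3 and 1.20 ± 0.469-fold for BCL9 (n = 5 each), with libraries on both sides of the genome level.

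In the 157 kb of HOXC (chr12:54312615-54469814), pSTAT3 gave 4, 5 and 26 peak pairs in control and 22 and 29 after knockdown, or 0.958 ± 0.236-fold the genome density (n = 5). BCL9 gave 0, 0 and 12 in control and 8 and 25 after knockdown, or 0.861 ± 0.788-fold (n = 5). The BCL9 libraries at 0 were those with the shortest lists, in which the genome density would give 1.59 and 1.37 peak pairs, so absence and scarcity could not be separated there.

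HOXD held few peak pairs of either antibody in every library. In its 138 kb (chr2:176937449-177075635), pSTAT3 gave 0, 0 and 3 in control and 7 and 6 after knockdown, where the genome density would give 5.80, 4.81, 18.2, 20.3 and 24.0. BCL9 gave 0, 0 and 5 in control and 1 and 3 after knockdown, against 1.40, 1.21, 7.25, 4.66 and 16.4. All 10 libraries were thus below the genome level, at 0.152 ± 0.153-fold for pSTAT3 and 0.217 ± 0.282-fold for BCL9 (n = 5 each). CTCF was not sparse there: its single library gave 63 peak pairs in HOXD and 67 in HOXA, each 2.83-fold the genome density, with 94 in HOXB (2.43-fold) and 40 in HOXC (1.58-fold).

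**Figure D1:**
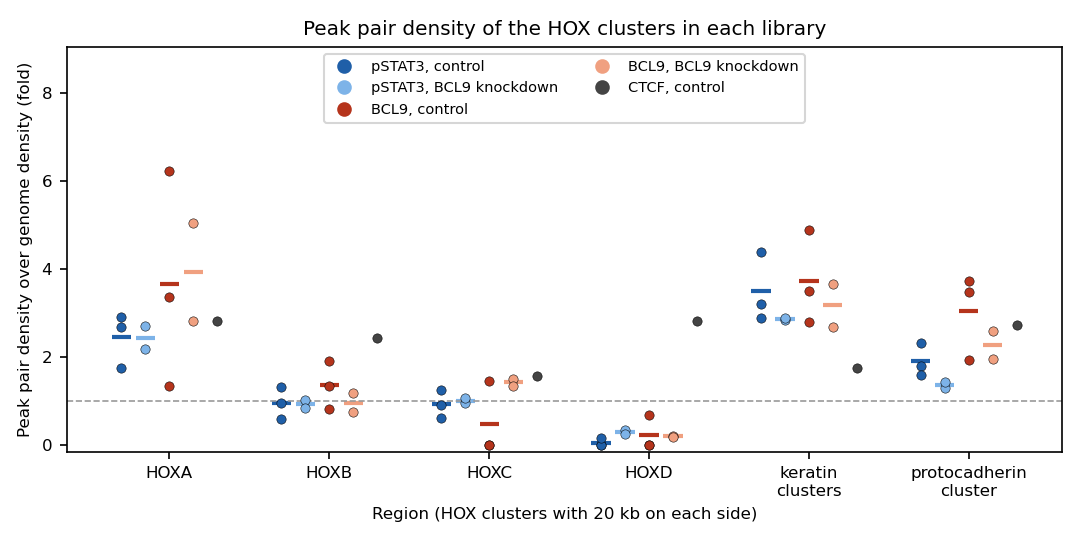
Peak pair density of each HOX cluster, the keratin clusters and the protocadherin cluster divided by the density of the same list on the genome (fold, linear axis); each point is a library, short bars are group means and the dashed line is the genome level. All 10 pSTAT3 and BCL9 libraries lie above 1 in HOXA and below 1 in HOXD, while the CTCF point is at 2.83 in both.

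The order of the clusters held within libraries. The density was 10.9 ± 5.24 peak pairs per Mb per 10000 listed in HOXA, 3.79 ± 1.35 in HOXB, 3.21 ± 1.94 in HOXC and 0.651 ± 0.764 in HOXD (n = 10 libraries of both antibodies). HOXA exceeded HOXB, HOXC and HOXD, and HOXB exceeded HOXD, each in 10 of 10 libraries (exact two-sided sign-flip permutation test over libraries, p = 0.00195, the smallest it can give, adjusted p = 0.00293 over 6 comparisons). HOXC exceeded HOXD in 8 of 10 libraries and tied at 0 in the others (exact permutation p = 0.00781, adjusted p = 0.00937). HOXB and HOXC did not differ beyond the spread between libraries, with HOXB higher in 5 of 10 (exact permutation p = 0.633, adjusted p = 0.633). These 6 comparisons were chosen after the values were seen.

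Against the keratin clusters, tandem arrays of genes for epithelial filament proteins on the chromosomes of HOXB and HOXC, HOXB, HOXC and HOXD were sparse. The keratin density was 11.9 ± 2.62 and that of the clustered protocadherins, a tandem family of neuronal adhesion genes on chromosome 5, was 7.82 ± 2.93 (n = 10). HOXB, HOXC and HOXD were below both in 10 of 10 libraries (exact two-sided sign-flip permutation test, p = 0.00195 for each, adjusted p = 0.00260 over 8 comparisons). HOXA was higher than keratin in 4 of 10 libraries, and the difference missed the threshold (exact permutation p = 0.467, adjusted p = 0.467). Among the strongest peak pairs HOXA was below keratin, with an exact permutation p of 0.00391 at equal list length and 0.0293 above the median signal. HOXA was higher than the protocadherins in 8 of 10, which missed the threshold (exact permutation p = 0.0762, adjusted p = 0.0871). Without control BCL9 replicate 1, that exact permutation p was 0.00781, not adjusted. At equal list length the direction was the other way. The mean fold over the genome was then 0.780 in HOXA against 2.54 in the protocadherins for pSTAT3, and 2.18 against 2.99 for BCL9.

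Few of the HOX peak pairs were among the strongest of their list, and those lay in HOXA. Of the 424 pSTAT3 peak pairs in the clusters, summed over 5 libraries, 12 (2.83%) were in the first 10% of their list, and of the 227 BCL9 peak pairs 11 were (4.85%). Pooled over libraries, 32.8% of the pSTAT3 and 48.0% of the BCL9 peak pairs were at the lowest signal of their list. For pSTAT3 the shares by library were 67.9%, 45.5% and 33.3% in control, against 36.8%, 45.2% and 35.1% of the own lists. After knockdown they were 36.6% and 20.1%, against 34.3% and 21.1%. For BCL9 they were 50.0%, 33.3% and 58.3% in control, against 48.1%, 32.4% and 42.8%. After knockdown these BCL9 shares were 50.0% and 43.2%, against 39.5% and 45.1%. All 23 peak pairs in the first 10% were in HOXA, from 7 of 10 libraries. HOXB, HOXC and HOXD gave 0 from any library, and there the best ranks of pSTAT3 were 11.0% in HOXB, 16.4% in HOXC and 38.2% in HOXD. Among as many of the strongest peak pairs as the shortest list holds, 24728, HOXA kept 5 pSTAT3 peak pairs over 5 libraries, where the genome density gives 1.28 in each, and the HOXA fold over the genome fell from 2.45 to 0.780. For BCL9 it kept 14, of which 8 came from the shortest list, control replicate 2. The HOXA fold for pSTAT3 thus changed its side of the genome level with the length of the list.

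The HOXA peak pairs were concentrated in the anterior part of the cluster, before HOXA5, where the genes act in the hindbrain and pharyngeal arches. HOXA3, which acts in the pharyngeal pouches that form the thymus and parathyroid glands, was nearest to 9, 2 and 15 pSTAT3 peak pairs in control and to 19 and 15 after knockdown. It was nearest to 1, 3 and 6 BCL9 peak pairs in control and to 8 and 11 after knockdown. HOXA3 was the sole HOX gene nearest to a peak pair in every one of the 10 libraries. HOXA4 was nearest to 7, 3, 11, 10 and 12 pSTAT3 and to 0, 4, 8, 3 and 9 BCL9 peak pairs in the same order of libraries.

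The middle and posterior HOXA genes had fewer. HOXA5, which acts in lung development and is studied as a regulator in breast epithelium, was nearest to 1, 1 and 5 pSTAT3 peak pairs in control and to 2 and 13 after knockdown. HOXA9, known for its part in blood stem cells and leukaemia, was nearest to none in 2 of 3 control pSTAT3 libraries and in all 3 control BCL9 libraries, to 4 pSTAT3 peak pairs in the third control, and to 6 and 1 pSTAT3 and 7 and 7 BCL9 peak pairs after knockdown. HOXA13, which patterns digits and the genital tract, was nearest to 1, 2 and 1 peak pairs in 3 of 10 libraries and to none in the others.

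**Figure D2:**
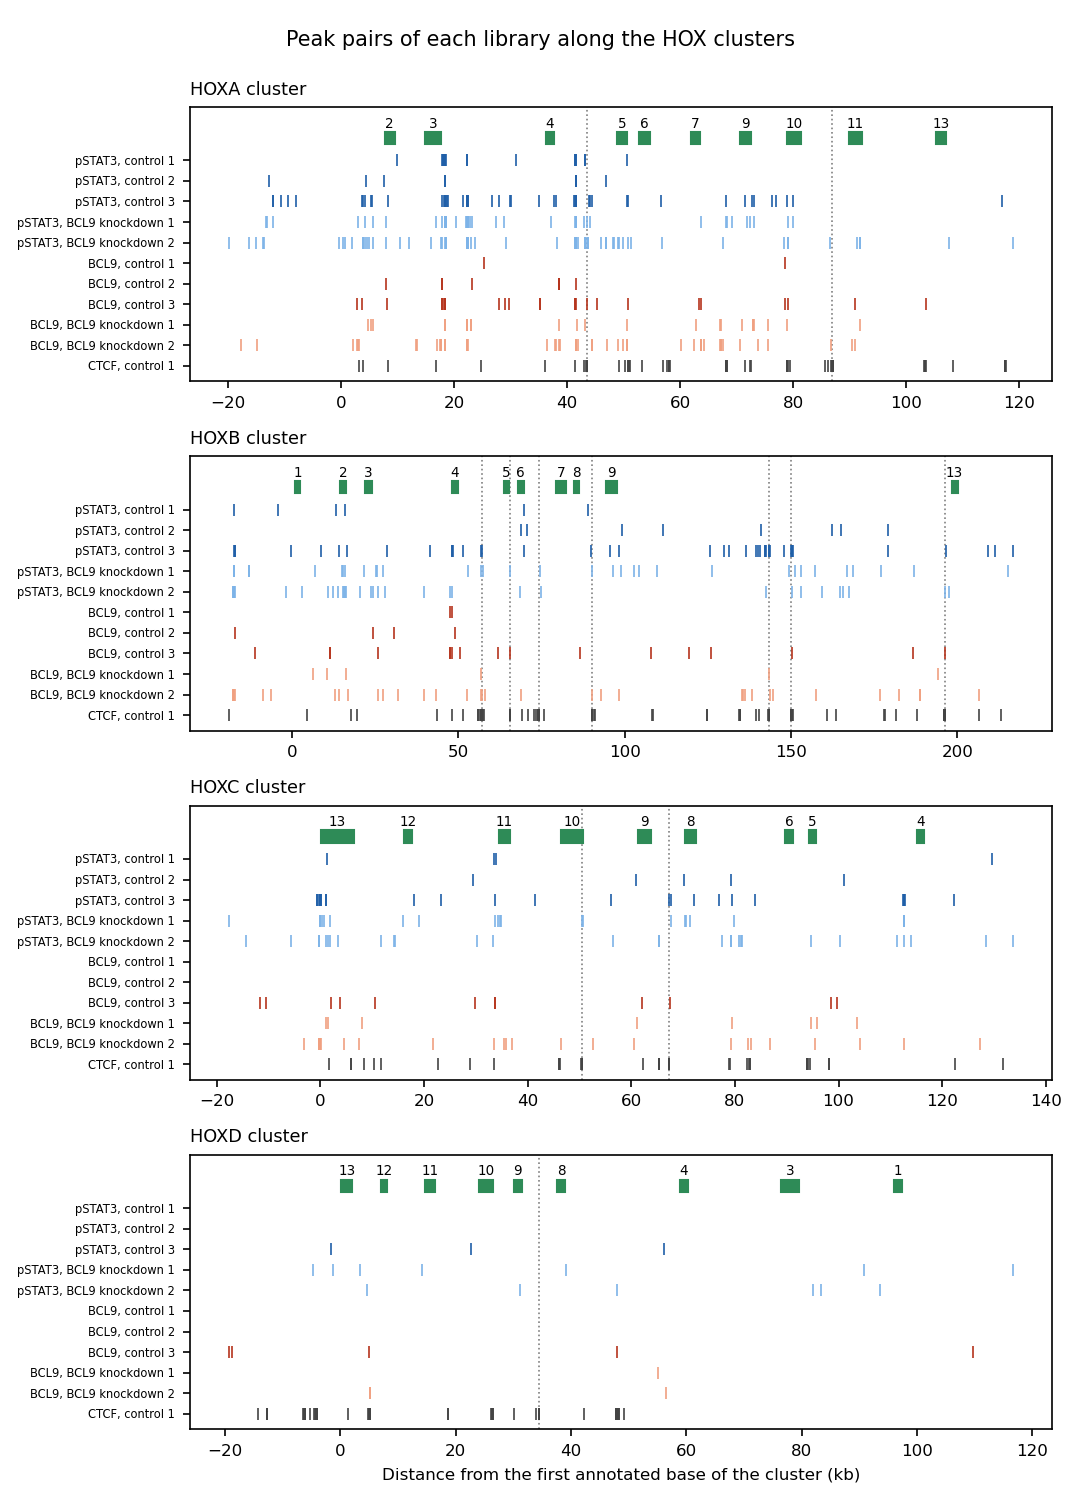
Midpoints of the peak pairs of every library along the 4 clusters, as distance from the lowest annotated base of the cluster (kb); each tick is a peak pair, green boxes are the coding spans of the numbered HOX genes and dotted lines are the 12 strong CTCF sites. In HOXA the pSTAT3 and BCL9 ticks thin out beyond the rightmost dotted line, while the CTCF ticks continue.

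Consensus regions, 100 bp windows around midpoints that were merged and kept where 2 or more libraries of the same antibody and condition held them, numbered 25 in the clusters. HOXA held 16 of them, HOXB 5, HOXC 4 and HOXD 0. By antibody and condition there were 7 for pSTAT3 and 6 for BCL9 in control, and 17 for pSTAT3 and 6 for BCL9 after knockdown. The pSTAT3 lists held 118933, 98665 and 374089 peak pairs in control and 415624 and 493174 after knockdown. The number of such regions over the genome is not given here, and a difference between conditions in these counts was not tested. Regions of both antibodies in the same condition numbered 4, all in HOXA and all between the start codons of HOXA3 and HOXA5. They are called regions 1 to 4 here, and 20 of the 23 peak pairs in the first 10% of their lists were in regions 2 to 4. For BCL9, regions 2 and 3 met the rule after knockdown alone, and regions 1 and 4 in control alone. What the BCL9 antibody bound in knockdown cells was not tested.

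Region 1 (chr7:27150437-27150663), 291 bp upstream of the HOXA3 start codon in an intron of HOXA3 and of its antisense gene HOXA-AS2, held both antibodies in control. Its best pSTAT3 ranks were 81.6% and 82.5% in control replicates 1 and 3, and its best BCL9 ranks were 26.0% and 31.6% in control replicates 2 and 3. After knockdown it had pSTAT3 peak pairs at ranks 82.9% and 30.1% and no BCL9 peak pair. Region 1 was thus weak, above all for pSTAT3.

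Region 2 (chr7:27150867-27151323), 836 bp upstream of the same start codon, held the AP-1 and STAT strings shown above. The best pSTAT3 ranks were 54.9%, 9.30% and 7.18% in control and 13.3% and 19.6% after knockdown, so that every pSTAT3 library had a peak pair there. BCL9 gave none in control replicates 1 and 2, a rank of 8.06% in replicate 3, and ranks of 5.03% and 3.36% after knockdown. The AP-1 string lay in the window of the best BCL9 peak pair, and the STAT string near the end of the region.

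Region 3 (chr7:27154845-27155195) lay 4761 bp upstream of the HOXA3 start codon, on an exon of HOXA-AS2 within an intron of HOXA3, and held neither string. The best pSTAT3 ranks were 54.9% and 4.07% in control replicates 1 and 3, with no peak pair in replicate 2, and 8.05% and 3.31% after knockdown. BCL9 gave no peak pair in any of the 3 control libraries and ranks of 3.20% and 7.67% in the 2 knockdown libraries. The BCL9 lists held 28690, 24728 and 148755 peak pairs in control and 95586 and 336493 after knockdown. Whether BCL9 at region 3 differed between conditions was not tested.

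Region 4 (chr7:27173929-27174340) lay 3782 bp upstream of the HOXA4 start codon in introns of HOXA3 and HOXA-AS3. Windows of 9 of 10 libraries overlapped it, all but control BCL9 replicate 1. In knockdown BCL9 replicate 1 the window alone reached region 4, and the midpoint lay past its end. The best pSTAT3 ranks were 22.6%, 11.0% and 7.18% in control and 12.0% and 5.91% after knockdown. The best BCL9 ranks were 33.0% and 23.0% in control replicates 2 and 3, and 80.2% and 1.19% after knockdown. The last is the best rank of either antibody in any HOX cluster, and its window contains the AP-1 string of region 4. A CTCF peak pair of rank 62.7% was also listed there, while regions 1 to 3 had none.

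**Figure D3:**
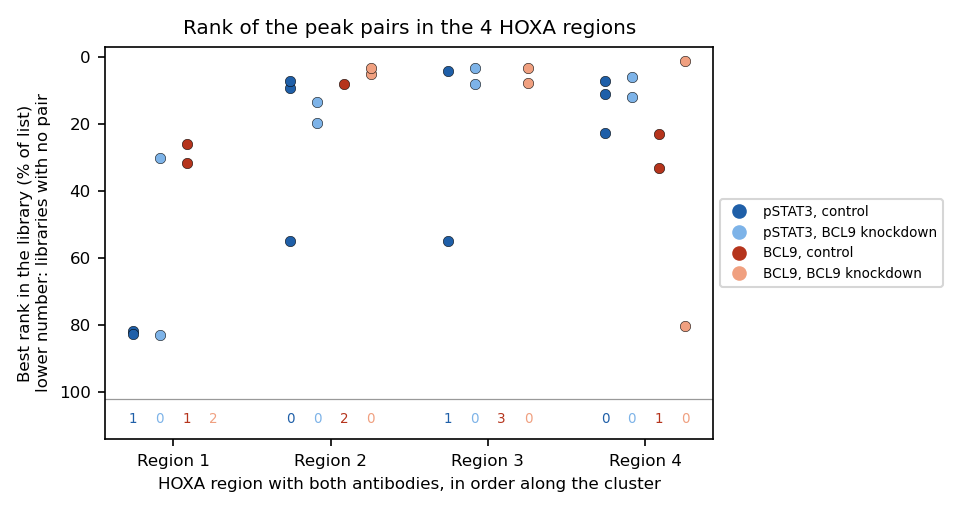
Best rank (percent of the list, strongest at the top) of the peak pairs whose windows overlap the 4 HOXA regions of both antibodies. Each point is a library, coloured by antibody and condition. The numbers along the bottom count the libraries with no such peak pair. Regions 2 to 4 reach ranks better than 6% with at least 1 antibody, whereas region 1 does not rise above 26.0%.

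The other 12 HOXA regions belonged to a single antibody in each condition. The HOXA2 coding exon held pSTAT3 after knockdown and BCL9 in control (chr7:27140482-27140770). A region over the HOXA5 start codon (chr7:27183146-27183405), with its centre 49 bp upstream, held pSTAT3 in control and BCL9 after knockdown, and a CTCF peak pair of rank 25.2%. Regions near HOXA10, a gene of the uterus and of blood cells, held BCL9 in control in 1 case and pSTAT3 after knockdown in another.

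In HOXB, the regions were on coding exons of HOXB2 (pSTAT3, knockdown) and HOXB4 (BCL9, control), on the UTR of HOXB4 (BCL9, control), in LINC02086 between HOXB9 and HOXB13 (pSTAT3, knockdown), and 19794 bp past the start codon of HOXB1 outside the array (pSTAT3, both conditions). The last (chr17:46588294-46588650) holds the third AP-1 string found among the 25 regions. HOXB4, a gene known for expanding blood stem cells, had the best BCL9 rank of the cluster, 10.6% in control replicate 3, and the best pSTAT3 rank, 11.0% in control replicate 3. HOXB3 had peak pairs within 5 kb in all 10 libraries, but its annotated span covers HOXB4 and HOXB5 and reaches past the coding part of HOXB6. HOXB3 itself was the nearest coding gene to 0, 0 and 1 pSTAT3 peak pairs in control and to 4 and 5 after knockdown. It was nearest to 0, 2 and 1 BCL9 peak pairs in control and to 0 and 3 after knockdown.

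In HOXC, 3 of the 4 regions were at HOXC13, the posterior gene needed for hair and nail formation. They lay 237 bp upstream of its start codon and 1091 and 1707 bp past it in the intron, and each was a pSTAT3 region, in control for the 1091 bp region and after knockdown for the others. The fourth was a pSTAT3 region after knockdown, 2445 bp upstream of the HOXC4 start codon (chr12:54445176-54445349), with the best pSTAT3 rank of the cluster, 16.4% in knockdown replicate 1. The best BCL9 rank, 10.6% in control replicate 3, was near HOXC11. HOTAIR, a noncoding RNA of this cluster studied in breast cancer, held no consensus region and was named after its values were seen. Peak pairs lay within 5 kb of it in 3 of 3 control and 2 of 2 knockdown pSTAT3 libraries, and in 1 of 3 control and 1 of 2 knockdown BCL9 libraries. Those of control pSTAT3 replicates 1 and 2 had the lowest signal of their lists, at 81.6% and 77.4%. They also lay within 5 kb of HOXC11, whose annotated span overlaps HOTAIR.

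In HOXD, no gene had a peak pair of either antibody in more than 1 control library. After knockdown HOXD3, HOXD10, HOXD12 and HOXD13 had a pSTAT3 peak pair within 5 kb in 2 of 2 libraries, and HOXD3 and HOXD4 a BCL9 peak pair in 2 of 2. In each library HOXD3 and HOXD4 shared the same BCL9 peak pair, nearest to HOXD4 and at the lowest signal of its list (80.2% and 77.4%). Of all genes, 86.2% had pSTAT3 and 61.6% had BCL9 in 2 of 2 knockdown libraries. In at least 2 control libraries 73.1% had pSTAT3 and 36.9% had BCL9. HOXD13, the limb gene whose mutation fuses and duplicates digits, was within 5 kb of 0, 0 and 1 pSTAT3 peak pairs in control and 3 and 1 after knockdown. HOXD1, HOXD8, HOXD9, HOXD10 and HOXD11 had no BCL9 peak pair within 5 kb in any of the 5 BCL9 libraries, and were the sole HOX genes without any. For pSTAT3, each of these 5 genes had 1 peak pair in 1 or more libraries, at ranks from 55.7% to 89.4%, HOXD10 in 3 libraries. The best BCL9 rank of the cluster, 18.0% in control replicate 3, lay within 5 kb of the long annotated span of HOXD3, where HOXD8 was the nearest coding gene, and the best pSTAT3 rank, 38.2% in control replicate 3, within 5 kb of HOXD13.

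Counted by gene, the share of HOX genes with a pSTAT3 or BCL9 peak pair was below the share of all protein-coding genes in each group of libraries. A peak pair within the gene or 5 kb was present in at least 2 libraries of the group for 20 of 39 members (51.3%) for pSTAT3 in control, against 73.1% of all 20098 genes. After knockdown it was present for 27 members (69.2%), against 86.2%. For BCL9 it was present for 7 members (17.9%) in control, against 36.9%, and for 19 (48.7%) after knockdown, against 61.6%. CTCF had a peak pair at 37 members (94.9%), against 92.2%, and lacked one at HOXD1 and HOXD4. HOX genes are short, with a median span of 14.2 kb including the 5 kb on each side, against 37.3 kb for all genes, and a longer span catches more peak pairs.

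A count within 5 kb of a transcription start depends less on gene length. For pSTAT3 it gave 16 members (41.0%) in control, against 51.1% of 19756 genes, and 21 (53.8%) after knockdown, against 70.4%. For BCL9 it gave 6 members (15.4%), against 19.8%, and 18 (46.2%), against 40.4%. For CTCF it gave 34 members (87.2%), against 79.6%. By this count the share of HOX genes with pSTAT3 was below that of all genes in both conditions, that with BCL9 was below it in control and above it after knockdown, and that with CTCF was above it. No test was made of these counts.

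**Figure D4:**
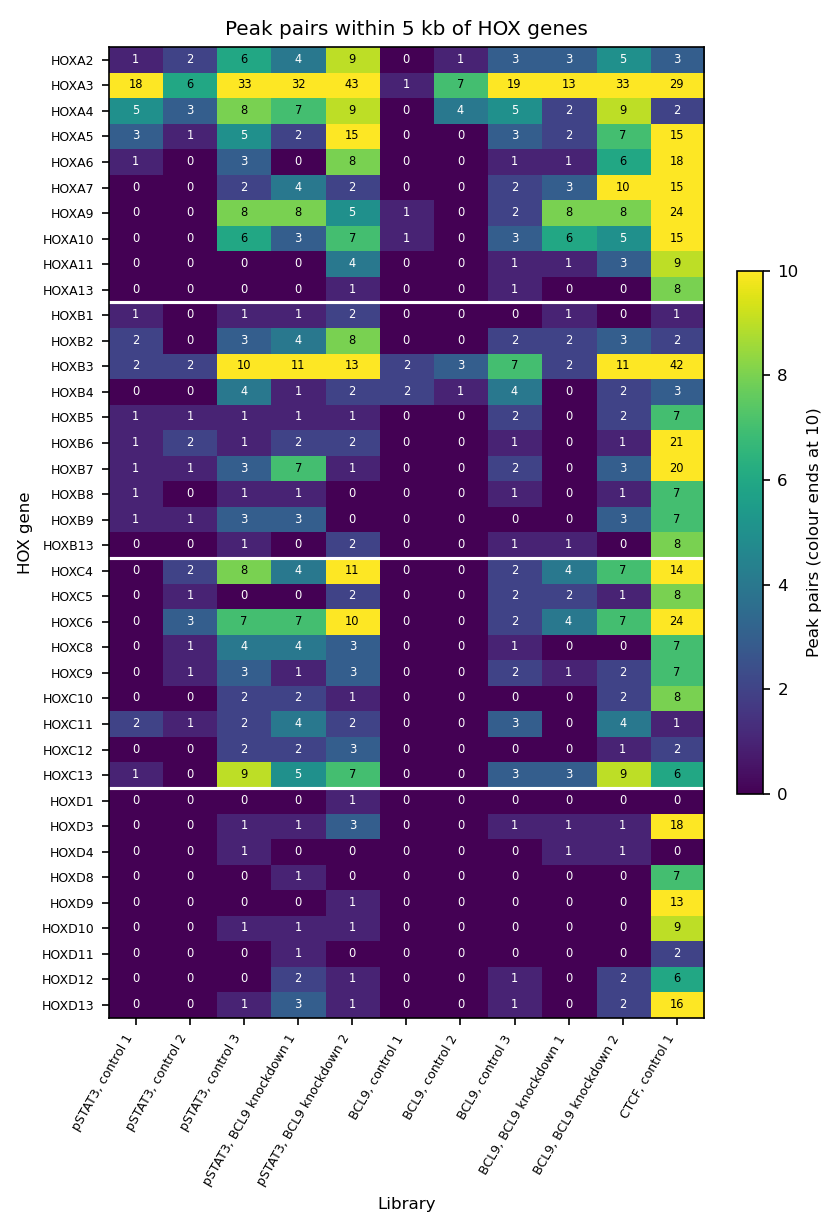
Number of peak pairs within 5 kb of the HOX genes shown (rows) in each library (columns), printed in the cells and coloured up to 10. HOXA3 has between 1 and 43 in every pSTAT3 and BCL9 library, while the HOXD rows are mostly 0 except in the CTCF column.

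The genes with a pSTAT3 peak pair within 5 kb in all 5 libraries were HOXA2, HOXA3, HOXA4, HOXA5, HOXB3, HOXB5, HOXB6, HOXB7 and HOXC11. HOXA3 and HOXB3 alone had a BCL9 peak pair in all 5. HOXA3 had 18, 6 and 33 pSTAT3 peak pairs in control and 32 and 43 after knockdown, and 1, 7 and 19 BCL9 peak pairs in control and 13 and 33 after knockdown. Its annotated span runs over HOXA4, HOXA5 and HOXA6, so these counts include peak pairs nearest to those genes. The annotated span of HOXB7 likewise runs over HOXB8 and HOXB9. HOXB7 was nearest to 0, 0 and 0 pSTAT3 peak pairs in control and to 1 and 0 after knockdown. HOXB5 was nearest to 0, 0 and 2 in control and to 3 and 0 after knockdown. Per library, between 5 HOX genes (control BCL9 replicates 1 and 2) and 34 (knockdown pSTAT3 replicate 2) had a peak pair, the libraries with the shortest lists and the longest list. The share of all genes is not given for single libraries or for all 5 together, so these counts have no background.

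Relative to start codons, the pSTAT3 and BCL9 peak pairs lay upstream more often than the length of that stretch would give. The 2 kb before the HOX start codons, 11.4% of the clusters' length, held 94 of 424 pSTAT3 peak pairs (22.2%) and 61 of 227 BCL9 peak pairs (26.9%), and 31 of 264 CTCF peak pairs (11.7%). Per library the upstream share was 2.37 ± 0.909 times its share of length for pSTAT3 and 2.21 ± 1.56 times for BCL9 (mean ± SD, n = 5). Over all 19819 genes with a coding span, the corresponding values were 2.79 ± 0.313 and 3.89 ± 0.578, so the HOX clusters were not higher than the genome in this respect. Coding exons held 6.37% of the pSTAT3 and 6.17% of the BCL9 peak pairs on 5.20% of the length.

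The CTCF library gave sites against which to place these peak pairs. Whether the sites act as domain borders was not tested. The CTCF peak pairs among the 24728 strongest merged into 12 sites in the clusters, 2 in HOXA, 7 in HOXB, 2 in HOXC and 1 in HOXD. That is 1.76 sites per 100 kb, against 0.445 in the genome. The strongest site, of rank 2635 in the CTCF list, lay at HOXB13 and its neighbour PRAC2 (chr17:46801994-46802137), at the far end of HOXB. Next came a site in LINC02086 between HOXB9 and HOXB13 (chr17:46755852-46756018, rank 4602), the HOXC8 to HOXC9 site (rank 7200) and a site in a coding exon of HOXC10 (chr12:54383073-54383172, rank 9768). HOXD kept 1 site, between HOXD8 and HOXD9, but had 6 among the 50000 strongest CTCF peak pairs.

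The exact CTCF core motif lay at 1 of the 12 sites, the HOXB8 to HOXB9 site shown above (rank 10137). Of the 24728 strongest CTCF windows in the genome 25.4% had it, and of the 22 such windows in the HOX clusters 1 did. The other 11 sites were 1 or 2 letters away from the motif in the 100 bp window of their strongest peak pair. A match of letters is a description and says nothing of binding.

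The windows of the strong CTCF sites were compared for runs of shared letters. Among the 66 pairs of the 12 windows, the longest run of shared letters had a median of 7. The longest run, 12 letters, was between the HOXC8 to HOXC9 site and the HOXD8 to HOXD9 site. Both sites lie between the same paralogs. In both windows the run begins inside a stretch that is 1 or 2 letters away from the CTCF core motif. Runs of 10 or more letters occurred in 5 pairs. Among them were sites between different paralogs, such as the HOXA10 to HOXA11 site and a HOXB9 to HOXB13 site, with 10 letters. No test was made of these runs.

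The strong CTCF sites divided HOXA into 3 stretches that held very different numbers of pSTAT3 and BCL9 peak pairs. Below the HOXA4 to HOXA5 site lay 212 of the 305 peak pairs of the 10 libraries (69.5%) on 43.2% of the length, in the stretch that ends past HOXA4. Between it and the HOXA10 to HOXA11 site (chr7:27219474-27219622, rank 12467) lay 82 (26.9%) on 29.5% of the length, with HOXA5, HOXA6, HOXA7, HOXA9 and HOXA10. Beyond lay 11 (3.61%) on 27.3% of the length, with HOXA11 and HOXA13, which act in the limb and the reproductive tract.

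The pattern was seen in single libraries. The percentage of HOXA peak pairs below the HOXA4 to HOXA5 site was 94.4%, 88.9% and 71.2% for pSTAT3 in control and 78.7% and 66.7% after knockdown. For BCL9 it was 50.0%, 100% and 69.2% in control and 56.0% and 53.1% after knockdown, where the 50.0% rests on 2 peak pairs. Beyond the HOXA10 to HOXA11 site, the 5 pSTAT3 libraries had 0, 0, 1, 0 and 5 peak pairs and the 5 BCL9 libraries 0, 0, 2, 1 and 2. Of the 67 CTCF peak pairs, 16.4% lay below the HOXA4 to HOXA5 site, 59.7% between the sites and 23.9% beyond the HOXA10 to HOXA11 site, so CTCF was densest in the middle stretch. The dividing sites were taken from CTCF alone, but they were looked at with the positions of the other peak pairs known, and no test was made.

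In HOXB the stretch below the HOXB4 to HOXB5 site, with HOXB1, HOXB2, HOXB3 and HOXB4, held 93 of 190 peak pairs (48.9%) on 32.1% of the length. The 7 stretches above it held between 3.16% and 16.3% each, on 2.80% to 22.1% of the length. Per 10 kb the first stretch held 12.1 peak pairs, and the short stretch between the LINC02086 sites held a similar 11.9, resting on 8 peak pairs. In HOXC the stretch with HOXC10, HOXC11, HOXC12 and HOXC13 held 52.7% on 44.9% of the length, and that with HOXC4, HOXC5, HOXC6 and HOXC8 held 39.7% on 44.5%. In HOXD 13 peak pairs lay on the HOXD13 side of the HOXD8 to HOXD9 site and 12 on the HOXD1 side.

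Few pSTAT3 and BCL9 peak pairs lay at the strong CTCF sites, in the clusters as in the whole lists. Of the 12 sites, 9 had a window of any of the 10 libraries and 3 had one in at least 2 libraries. The HOXA10 to HOXA11, HOXB6 to HOXB7 and HOXD8 to HOXD9 sites had none. Over all CTCF peak pairs, the pSTAT3 windows in the clusters shared at least 1 bp with a CTCF window in 9.46% ± 6.07 of cases, against 8.86% ± 1.43 over the whole lists (n = 5). For BCL9 it was 12.1% ± 10.2 against 11.2% ± 2.49 (n = 5). The clusters were higher than the list in 3 of 5 libraries of either antibody, a difference smaller than the spread between libraries. With the 24728 strongest CTCF peak pairs alone the shares were 1.46% ± 1.34 against 0.788% ± 0.138 for pSTAT3 and 1.35% ± 1.51 against 0.669% ± 0.195 for BCL9, resting on 9 and 4 windows.

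Windows of both antibodies overlapped for a smaller share of the HOX peak pairs than of the whole lists when the 4 clusters were pooled, but not for pSTAT3 in HOXA. A window of the partner antibody in any library of the same condition overlapped 26.8% ± 6.85 of the pSTAT3 windows in the clusters, against 33.5% ± 8.58 over the whole lists, and 33.3% ± 9.81 of the BCL9 windows, against 55.9% ± 16.6 (n = 5 each). The pooled value was lower in all 10 libraries. In HOXA alone the share was 44.9% ± 11.8 for pSTAT3, above the own list in 5 of 5 libraries, and 38.5% ± 23.8 for BCL9, above it in 3 of 5. In HOXB and HOXC no library was above its list, with 16 of 127 and 15 of 86 pSTAT3 windows and 10 of 63 and 13 of 45 BCL9 windows overlapping. In HOXD none of the 16 pSTAT3 and 9 BCL9 windows overlapped. These libraries share partners within a condition, and no test was made.

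Most of the motif strings searched had lower shares in the cluster windows than in the windows of the whole lists. The AP-1 string lay in 28 of 424 pSTAT3 windows in the clusters (6.60%), against a mean of 17.6% over the whole lists, and in 13 of 227 BCL9 windows (5.73%), against 11.3%. The STAT string lay in 3 of 424 pSTAT3 windows (0.708%), against 3.46%, and in 6 of 227 BCL9 windows (2.64%), against 3.23%. The string TGATNNAT, bound by PBX and HOX dimers, lay in 4.25% of the pSTAT3 windows and 3.96% of the BCL9 windows, against 6.70% and 5.47%. The exceptions were the CTCF core for pSTAT3, at 0.708% against 0.265%, and the TCF and LEF string CTTTGAT for BCL9, at 1.76% against 1.37%, each resting on 3 or 4 windows. Strings were searched on both strands, and overlapping windows within a library can count the same string more than once.

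Conditions were compared by the share of a cluster in each list. For pSTAT3 in HOXD the 2 knockdown libraries, at 0.168 and 0.122 per 10000 listed, were both above the control libraries at 0, 0 and 0.0802 (exact two-sided permutation p = 0.200, adjusted p = 1.00 over 8 comparisons). For BCL9 in HOXC they were 0.837 and 0.743, against 0, 0 and 0.807, and the groups overlapped (exact permutation p = 0.300, adjusted p = 1.00). In HOXA the mean share was 1.27 ± 0.318 in control (n = 3) and 1.26 ± 0.190 after knockdown (n = 2) for pSTAT3 (exact permutation p = 1.00, adjusted p = 1.00), and 1.89 ± 1.28 and 2.04 ± 0.820 for BCL9 (exact permutation p = 0.900, adjusted p = 1.00). The other 4 comparisons had exact permutation p-values from 0.400 to 1.00 (adjusted p = 1.00). With 3 libraries against 2, the smallest p is 0.1, so no difference between conditions could pass 0.05.

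No difference between the antibodies in the share of their lists that fell in a cluster passed the threshold. In HOXA it was 1.27 ± 0.244 per 10000 listed for pSTAT3 and 1.95 ± 0.994 for BCL9 (n = 5 each, exact two-sided permutation p = 0.206, adjusted p = 0.683 over 4 comparisons). Each library was also left out in turn. Control BCL9 replicate 1 had the lowest BCL9 share, 0.697 from 2 peak pairs. Without it, BCL9 was higher with an exact permutation p of 0.0159. The shortest list, control BCL9 replicate 2, was kept there and had the highest share, 3.24. For HOXB the exact permutation p was 0.341 (adjusted p = 0.683), and at equal list length it was 0.0476, with BCL9 higher. At that length HOXB kept 0 pSTAT3 and 8 BCL9 peak pairs, 2 and 4 of them from control replicates 1 and 2, the shortest lists. The p-values of these alternatives were not adjusted. For HOXC and HOXD the exact permutation p-values were 0.778 and 0.746 (adjusted p = 0.778 for each).

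Genes that act with or upstream of HOX genes were counted in the same way within 5 kb. Of 9 cofactors of the PBX, MEIS and PKNOX families, which bind DNA together with HOX proteins, 7 had pSTAT3 in control and 7 after knockdown, and 6 and 7 had BCL9. Of 12 genes of the retinoid axis, which sets HOX expression in the embryo, 11 and 11 had pSTAT3, and 8 and 10 had BCL9. Of 12 chromatin regulators of HOX loci, among them Polycomb and Trithorax genes, 10 and 12 had pSTAT3, and 5 and 9 had BCL9. Of 6 CDX and ParaHox genes, relatives of HOX that act in the gut, pancreas or nervous system, 1 and 3 had pSTAT3 and 0 and 0 had BCL9. Of 14 genes of other homeobox clusters, 11 and 10 had pSTAT3, and 4 and 5 had BCL9. These lists are small, their genes differ in length, and the shares of all genes given above are their background.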

How the data were processed

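ChIP-exo peak pair lists of 11 libraries were used, and the IgG sample is not analysed here. Tool and build (bcl2fastq, hg19) are credited to the submitters' processing notes. The sources used here name no aligner. The deposited lists give each peak pair's borders and a signal, whose normalization the sources used here do not state, and read depth is unknown. Midpoints were counted in clusters, genes and windows of 100 bp with Python 3.11.15, numpy 2.4.6, pandas 2.3.3 and scipy 1.17.1, and figures were drawn with matplotlib 3.10.9. Genes and annotation came from GENCODE release 44 lifted to GRCh37, and the nearest gene and start codon from the coding span of each canonical transcript. Signal was used for ranks within a list alone.

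Conditions and antibodies were compared by exact two-sided permutation tests over libraries, and clusters by exact sign-flip tests within libraries, with Benjamini-Hochberg adjustment in each family. The scripts were tested on simulated data. Any member could be named, with full values for those with the best rank of a cluster or with no peak pair, and noncoding genes where they hold a consensus region. HOXA5, HOXA9 and HOXA13 were given in full after their values were seen. A member gene and some sequences are not reported here. The members and lists were chosen with earlier results of these data known. Alternatives were equal list length, other margins, flanks in place of the genome, pairs above the median signal, other CTCF cuts, a replicate block and leaving out each library. The comparisons between HOX clusters were added after seeing the data.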

Additional observations from a re-analysis of the deposited data

How the results depend on the processing

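Read depth is unknown and the lists differ in length, so a count of 0 in a short list gives no absence. The labels do not say that a replicate number marks a shared culture. Deviations of same-numbered pSTAT3 and BCL9 libraries correlated over 0.1 in 4 of 5 pairs (0.132, 0.235, 0.116 and 0.116) but not in the other (-0.0000977), against -0.196 to 0.0624 for other numbers. The knockdown values are not separate: with 2 libraries per antibody the deviations mirror each other, so both same-number values are 0.116 and both other-number values -0.116. The count of pairs therefore cannot settle whether numbers mark shared cultures. Since not every pair did, the numbers were not taken to pair libraries, and the replicate block is given here alone. The cause of the changes below was not tested.

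Knockdown minus control shares (per 10000 listed, or percentage points of the flanks) changed direction as follows. For pSTAT3 in HOXA (-0.00693) the difference was 0.367 above the median signal and 0.0521 with the replicate block, and -0.187 to 0.127 leaving out a library. For pSTAT3 in HOXB (-0.0248) it was 0.0169 above the median, 0.314 against flanks and 0.130 with the block, and -0.179 to 0.130 leaving out a library. For pSTAT3 in HOXC it was -0.0422 to 0.137 leaving out a library, and in HOXD -0.0204 above the median. For BCL9 in HOXA (0.142) it was -0.539 at equal list length, -1.53 against flanks and -0.456 to 0.813 leaving out a library. For BCL9 in HOXC it was -0.135 at equal length. For BCL9 in HOXD (-0.0152) it was 0.0521 without margin, 0.0969 with the block and -0.0712 to 0.0969 leaving out a library.

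The pSTAT3 minus BCL9 difference leaving out a library was -0.995 to -0.360 in HOXA, -0.0656 to 0.144 in HOXC and -0.0584 to 0.0256 in HOXD. At equal length it was -0.647 in HOXB, past the threshold, and -0.0809 in HOXC.

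HOXA minus keratin density was -13.5 at equal length and -5.30 above the median, both past the threshold, and 2.69 without margin. HOXA minus protocadherin was -4.53 at equal length, 8.73 without margin and 2.50 to 4.31 leaving out a library. Paired by the replicate block, 5 sign flips allow no p under 0.0625, so the differences of HOXB (-8.11, -4.02), HOXC (-8.70, -4.61) and HOXD (-11.3, -7.16) from keratin and protocadherin, and those between HOX clusters (10.3, 7.15, 7.74, 3.14 and 2.56), kept their values and missed the threshold. HOXB minus HOXD was 1.35 and HOXC minus HOXD 0.257 at equal length, the latter 1.09 above the median, and HOXB minus HOXC was -0.0986 to 0.951 leaving out a library.

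The fold over the genome of pSTAT3 was 0.780 in HOXA and 0 in HOXB and HOXC at equal length, 3.10 in HOXA without margin and 0.467 in HOXB against flanks. For BCL9 it was 7.70 in HOXA and 0.557 in HOXB against flanks. For CTCF it was 3.70, 0.836, 0.711 and 4.07 against flanks from HOXA to HOXD, 3.59 in HOXA without margin, and 6.68 in HOXB and 1.66 in HOXD at equal length.

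HOX genes with pSTAT3 in control (20) numbered 13 within 1 kb, 1 at equal length, 10 asking every library, 32 asking any and 10 to 15 leaving out a library; after knockdown (27) they numbered 13 within 1 kb and 0 at equal length. With BCL9 in control (7) they numbered 3 at equal length, 3 in every library, 29 in any and 3 to 5 leaving out a library, and after knockdown (19) 1 at equal length, 32 in any and 21 to 30 leaving out a library. With CTCF (37) they numbered 18 at equal length. The share of all genes under these alternatives is not given here, so the changes cannot be set against it.

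The share of pSTAT3 windows on CTCF was 18.1% with 200 bp windows and 1.46% on the strongest CTCF peak pairs, and that of BCL9 1.35%. Among the strongest 5000 CTCF peak pairs HOXA, HOXC and HOXD had 0 sites and HOXB 2, and among 50000 HOXD had 6.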
